A study of Mus musculus with 12 samples.

Results

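Gm symbols are the provisional names that the mouse genome database gives to predicted genes, a mixed set of pseudogenes, noncoding RNAs and a few protein-coding genes that have no name of their own. The deposited table held 2079 symbols made of Gm and digits among its 17007 genes. The 267 described here reached at least 5 FPKM (sequenced fragments scaled to exon length and library size) in at least 3 of the 12 libraries. The members were thus chosen by their FPKM in these same libraries, so the height of a member in the libraries that brought it over 5 FPKM is a description and not a result. Of the 267, 51 were at 5 FPKM or more in all 12 libraries and 78 in exactly 3.

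RNA-Seq was performed on 4 groups of 3 libraries. Normal livers came from wild-type C57BL/6 mice. The other 9 libraries were hepatocellular carcinomas (HCC) induced by c-MYC and MCL1 in mice whose hepatocytes had lost Rictor and Tsc2 (c-MYC/MCL1/RictorKOTsc2KO), given vehicle, MLN0128 or everolimus. The plasmids, Cre among them, were delivered to hepatocytes by hydrodynamic tail vein injection into mice with floxed Rictor and Tsc2, so unlike the normal livers all 9 tumors carried both deletions and both oncogenes. MLN0128 blocks the mTOR kinase itself, whereas everolimus, derived from rapamycin, inhibits the mTORC1 complex. Each drug was given by gavage at 1 mg/kg/day, 6 days a week for 3 weeks from 6 days after injection, and mice were killed 3.7 weeks after injection, per the labels. The sources differ on this, since the study's text describes the sequenced tumors as treated for days rather than weeks, and the labels are followed here. The labels give neither ages nor sexes.

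Processed pseudogenes are reverse-transcribed copies of mRNAs, most often of abundant ones such as ribosomal protein mRNAs, and unprocessed pseudogenes are duplicated stretches of genome, including pieces of mitochondrial DNA carried into nuclear chromosomes. Small nucleolar RNAs (snoRNAs) are cut from introns of host genes and guide the modification of ribosomal RNA. Long noncoding RNAs (lncRNAs) are spliced or unspliced transcripts without a long reading frame, many of them tissue restricted. Because a pseudogene can be almost identical to the gene it copies, reads from either can be counted for the other, and how reads with several matches were counted is not given in the sources used here.

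In the GENCODE M21 annotation of GRCm38, 266 of the 267 symbols were found, the exception being Gm21320. By annotated type and closest sequence the members fell into 9 copies of mitochondrial genes, 38 copies of ribosomal protein genes, 65 copies of other genes, 21 protein-coding genes, 90 lncRNAs, 32 small nuclear or nucleolar RNAs and 11 entries annotated as miRNA. Processed pseudogenes were the largest annotated type with 90 members. A single exon block made up 166 members, 56 had 200 exon bases or less and 27 had 100 or less. Autosomes carried 259 members, most on chromosome 1 with 29, while 6 lay on X and 1 on Y.

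The sequences that show how closely members copy one another are the following, from the GENCODE M21 transcripts. The pseudogenes Gm10736 (chr13:111593534-111593611, minus strand) and Gm10180 (chr9:25101404-25101481, minus strand) are the same 78 bases, the reading frame of Rpl41, a very short protein of the large ribosomal subunit, with the start and stop codons in capitals. Across all transcripts these bases occurred in 4 genes, namely Rpl41 itself, both pseudogenes and the lincRNA Gm10076 (chr14:105681828-105682211, plus strand), and all 4 are in the table.
Gm10736: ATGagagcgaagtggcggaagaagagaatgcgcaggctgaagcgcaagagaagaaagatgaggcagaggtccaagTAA
Gm10180: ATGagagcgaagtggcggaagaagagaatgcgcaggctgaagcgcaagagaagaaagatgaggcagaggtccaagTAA

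The most abundant member, Gm23935 (chr16:11144125-11144181, plus strand), and Gm24270 (chr9:56223715-56223771, minus strand) are annotated as miRNAs and share all 57 bases. Gm24187 (chr13:9834469-9834525, minus strand) differs from them by G11A, counted from 1 at the 5′ end, which is the base in capitals.
Gm23935: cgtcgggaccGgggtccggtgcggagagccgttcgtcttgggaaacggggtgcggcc
Gm24270: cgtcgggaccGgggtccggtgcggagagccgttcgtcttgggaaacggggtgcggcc
Gm24187: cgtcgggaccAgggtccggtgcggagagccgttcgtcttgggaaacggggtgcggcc

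Other copies had drifted further from their source. Shown for each pair are the 90 aligned bases, gap-free and in the coding part of the source, that hold most differences, in capitals. These stretches are thus not typical. Over the whole alignments, mismatches were 16 of 684 bases for Gm13341, 10 of 432 for Gm11843 and 94 of 901 for Gm8941, besides gaps. Gm13341 (chr2:22587291-22587962, minus strand) differed from mt-Co2, cytochrome c oxidase subunit 2, at 7 of these 90 bases. Gm11843 (chr4:12131551-12131975, minus strand) differed from Ube2v2, a ubiquitin-conjugating enzyme variant, at 3, and Gm8941 (chr1:151136507-151137780, plus strand) from the glycolytic gene Gapdh at 17.
Gm13341: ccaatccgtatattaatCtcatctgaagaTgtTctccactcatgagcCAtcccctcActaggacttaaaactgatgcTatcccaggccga
mt-Co2: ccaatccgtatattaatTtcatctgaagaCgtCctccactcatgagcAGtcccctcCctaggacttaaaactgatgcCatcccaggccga
Gm11843: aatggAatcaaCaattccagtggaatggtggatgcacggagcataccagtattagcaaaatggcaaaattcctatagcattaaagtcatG
Ube2v2: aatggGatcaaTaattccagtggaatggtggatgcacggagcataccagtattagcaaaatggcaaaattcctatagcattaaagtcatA
Gm8941: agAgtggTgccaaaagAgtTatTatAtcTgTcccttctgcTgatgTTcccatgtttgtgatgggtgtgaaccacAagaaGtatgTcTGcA
Gapdh: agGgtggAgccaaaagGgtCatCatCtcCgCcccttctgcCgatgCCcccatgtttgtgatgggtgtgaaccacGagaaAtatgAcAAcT

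Some snoRNA members held short boxes by which this class is recognised, either TGATGA with CTGA or ACA, and an example of each kind is shown. Gm22858 (chr17:71641584-71641659, plus strand), in an intron of Wdr43, held TGATGA near its start and CTGA near its end. Gm26397 (chr8:126944847-126944980, minus strand), in an intron of Tomm20, ended in ACA followed by 3 bases.
Gm22858: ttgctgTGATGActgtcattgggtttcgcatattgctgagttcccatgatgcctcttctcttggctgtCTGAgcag
Gm26397: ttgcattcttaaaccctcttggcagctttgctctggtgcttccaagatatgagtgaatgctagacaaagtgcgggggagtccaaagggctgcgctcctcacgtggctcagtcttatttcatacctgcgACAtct

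Searched on the transcribed strand only, TGATGA within the first 15 bases together with CTGA within the last 15 was found in 6 of 26 annotated snoRNA members (23.1%) and in 294 of all 1507 annotated snoRNAs (19.5%). ACA at 3 bases from the end was found in 10 of 26 (38.5%) and in 276 of 1507 (18.3%).

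The FPKM steps correspond to 17141974 to 25155457 reads per library, at which 3 reads on 500 exon bases equal 0.198 to 0.576 FPKM and 3 reads on 100 bases 0.992 to 2.878 FPKM, so values of a few FPKM for the shortest members rest on a handful of reads. These floors cover counting error only. The tissue labels held against their markers, since the summed FPKM of 6 hepatocyte genes was 77038 to 97027 in the normal livers and 3869 to 6007 in the vehicle tumors, while 4 hepatoblast or tumor genes including Afp went from 2.52 to 4.42 up to 5464 to 7376. Summed macrophage markers (6 genes) were 214 to 253 FPKM in the normal livers, 58.3 to 92.3 in vehicle, 24.7 to 34.9 in MLN0128 and 42.6 to 127 in everolimus tumors, and biliary markers (4 genes) were 1.5 to 2.01, 17 to 52.5, 0.743 to 3.55 and 0.937 to 4.28. The 6 macrophage genes did not all move together, with 1 called higher and 3 called lower in vehicle tumors against normal livers. In bulk tissue, fewer cells of a type and less RNA per cell cannot be told apart. MLN0128 replicates 1 and 2 stood apart in that Xist was at 191 and 155 FPKM and the Y gene Ddx3y at 0, whereas the other 10 libraries had Xist under 0.07 FPKM and Ddx3y at 9.6 FPKM or more. Counts of calls with MLN0128, and values of the called members that are described, are also given without those libraries, where 1 MLN0128 library remains and is assumed to vary like the other groups.

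Differences are log2 fold changes on the log2(FPKM + 1) scale, given ± SE, from a limma model of all 14397 genes that reached 0.5 FPKM in 3 libraries. A gene was called when treat, a limma test of whether a change exceeds 1.5-fold, gave an adjusted p under 0.05, and the more permissive moderated test, with a fold change above 1.5, is given beside it. Tests are given only for members that would have passed the 5 FPKM rule through the 6 libraries outside the comparison. For the tumor against normal liver comparison those are the drug-treated tumors, so members high in tumors had the better chance to be tested and the balance of higher and lower calls is not read as a result. For a drug against vehicle they are the normal livers and the tumors of the other drug. Members high with both drugs thus had the better chance to be tested, and agreement between the drugs is not independent.

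In the vehicle tumors 98 members were at 5 FPKM or more in all 3 libraries, compared with 149 in the normal livers, 111 in the MLN0128 tumors and 108 in the everolimus tumors. Among 7846 other genes passing the same rule, those counts were 6070 in vehicle, 5788 in livers, 5842 in MLN0128 and 6033 in everolimus tumors. The deposited scaling raises liver FPKM relative to tumor FPKM compared with plain read totals, so these counts depend on it. All members together took up 0.486 to 0.53% of the recovered reads in normal livers, 0.427 to 0.725% in vehicle, 0.465 to 0.555% in MLN0128 and 0.348 to 0.747% in everolimus tumors, so the ranges overlapped.

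Vehicle tumors were compared with normal livers to see which predicted genes accompany the tumor state. Of 169 testable members, 36 were higher and 15 lower by treat, where 15.9% and 16.9% of all tested genes, and 23.2% and 17.0% of the genes meeting the same level rule through the other 6 libraries, were called higher and lower. The moderated test called 73 higher and 23 lower, against 27.1% and 25.8% of all tested genes and 34.9% and 24.7% at the level rule. The median change of the testable members was 0.54, beside 0.18 for all genes that met the same level rule. The members did not move as a block, and the classes differed in direction.

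**Figure D1:**
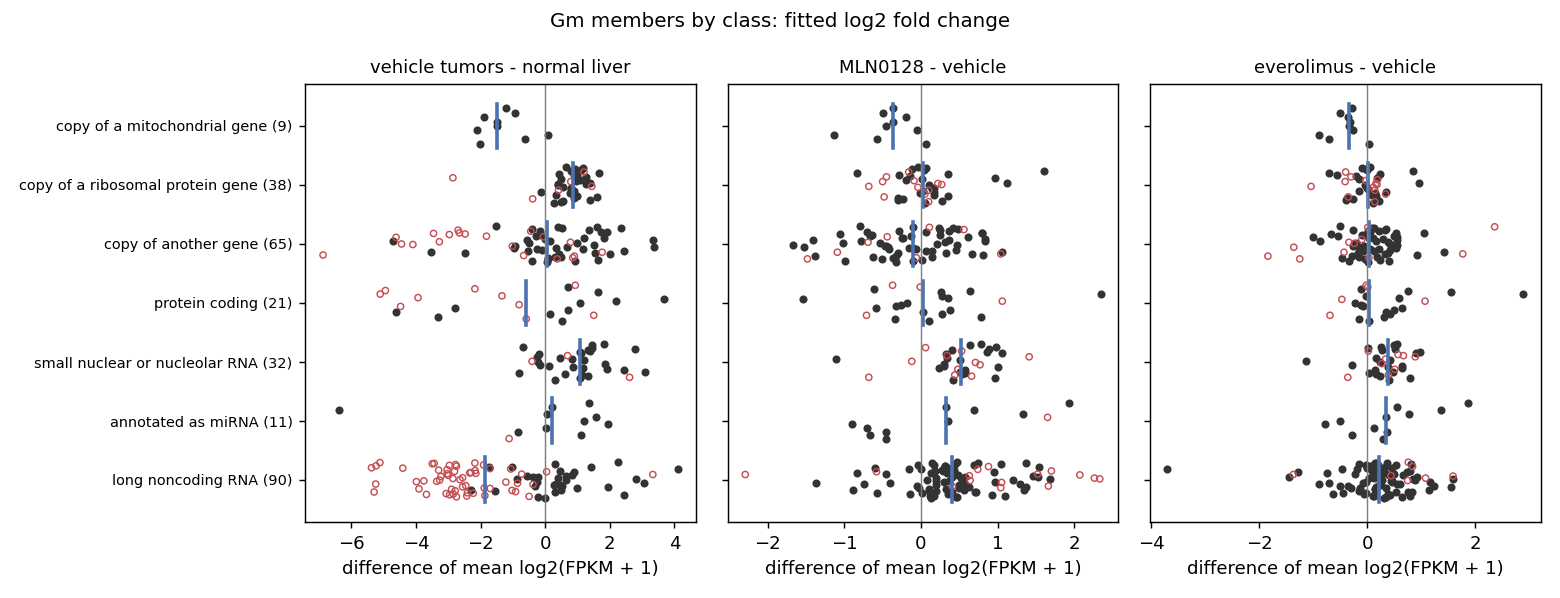
Each point is 1 of the 267 members, placed by class (vertical axis) and log2 fold change on the log2(FPKM + 1) scale (horizontal axis) in 3 comparisons, filled where the compared libraries were not needed for selection and hollow where they were, with a bar at the median of all members of the class. Mitochondrial copies lay mostly below 0 in vehicle tumors against normal livers (median -1.51), copies of ribosomal protein genes mostly above it, and the lncRNAs spread furthest to the left (median of all 90, -1.88).

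Copies of mitochondrial genes were lower in the tumors, as were the mitochondrial genes themselves. All 9 were testable and 6 fell by treat, where 17.0% of all genes at the same level rule fell, and the median change was -1.51. Gm10925 (chr1:24613974-24614651), identical to mt-Atp6, a subunit of ATP synthase, had 253, 239 and 309 FPKM in the normal livers and 112, 83.8 and 84.5 in the vehicle tumors. All livers lay above all tumors, a change of -1.51 ± 0.26 (adjusted p = 0.0083, limma treat), next to -1.54 for mt-Atp6. Gm10222, identical to mt-Nd4l of complex I, had 114, 101 and 122 FPKM in the livers against 28.4, 25.5 and 26.3 in vehicle tumors, which was -2.03 ± 0.15 (adjusted p = 7.9e-06, limma treat). Gm28439 (mt-Nd4), Gm29216 (mt-Co1), Gm28437 (mt-Co3) and Gm28661 (mt-Co2) fell by 2.10, 1.89, 1.51 and 1.21, and Gm28438 (mt-Nd3) stood at -0.94 without passing treat (adjusted p = 0.26, limma treat). These 7 lie side by side within chr1:24611535-24616197 and match their mitochondrial genes at 99.7 to 100% of aligned bases.

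The other 2 mitochondrial copies, on chromosome 2, did not show that difference. Gm13341, the more diverged copy of mt-Co2 printed above (95.9% identity), had 21.4, 12 and 16.7 FPKM in normal livers and 15.3, 18.6 and 17.9 in vehicle tumors. The groups overlapped and the change was 0.08 ± 0.52, beside -1.23 for mt-Co2. Gm13340, a copy of mt-Co1 at 97.6% identity, had 35.0, 16.9 and 22.0 in livers against 11.6, 17.1 and 16.8, a change of -0.62 ± 0.49 that did not pass. Of 31 genes of the mitochondrial chromosome, 26 were testable and 24 fell by treat with none higher (median -1.90). With libraries scaled to their plain read totals the median of the 9 copies was -0.58, beside 0.63 for all tested genes. Neither drug moved a mitochondrial copy past either test against vehicle.

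Copies of ribosomal protein genes had mostly positive changes in tumors. Of 32 testable copies, 31 had a positive change, 5 rose by treat and 19 by the moderated test, with none lower and a median of 0.89. Among all genes meeting the same level rule, 57% had a positive change, 23.2% were higher by treat and 34.9% by the moderated test. The 81 ribosomal protein genes themselves had a median of 0.76, with 12 higher by treat and 53 by the moderated test and none lower. Gm10736, the Rpl41 frame printed above, had 216, 153 and 138 FPKM in the normal livers and 470, 623 and 502 in the vehicle tumors. Every tumor lay above every liver and the change was 1.66 ± 0.40 (adjusted p = 0.033, limma treat), with 0.69 for Rpl41. The identical Gm10180 had 57.1, 29.1 and 49.1 FPKM in livers against 82.0, 93.7 and 69.3, a change of 0.89 ± 0.26 that passed only the moderated test. Gm10076, which contains the same bases in a longer transcript, had 240, 293 and 279 FPKM in livers and 322, 290 and 203 in vehicle tumors and did not differ beyond its spread (-0.02 ± 0.23). Entries with the same 78 bases thus ranged more than 5-fold in mean level and differed in their change.

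Gm10020, a copy of Rpl15, rose by 1.40 ± 0.25 (adjusted p = 0.013, limma treat) from 49.5, 45.3 and 44.9 FPKM in livers to 121, 140 and 113 in vehicle tumors. Gm5905 (Rps9), Gm13436 (Rpl18) and Gm13071 (closest to Rps18 at 78.8% identity) were the others that rose by treat, by 1.17, 1.27 and 1.37. The copy of Rps7 on chromosome X, Gm6472, was among the 6 most abundant members with 132, 130 and 134 FPKM in livers and 202, 190 and 149 in vehicle tumors. Its tumors lay above its livers, but the change of 0.44 ± 0.21 passed neither test. In MLN0128 tumors Gm6472 was at 229, 316 and 165 FPKM and in everolimus tumors at 220, 188 and 228. A copy of Rpl36a, Gm13194 (94.7% identity), went the other way, with 11.6, 11.1 and 20 FPKM in livers and 1.20, 1.07 and 0.828 in vehicle tumors. It is described without a test because the livers chose it, and Rpl36a itself changed by 0.76.

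Among copies of other genes, 45 were testable, of which 13 rose and 2 fell by treat, beside 23.2% and 17.0% of all genes at the same level rule. Copies of Npm1, nucleophosmin of the nucleolus, rose at 3 loci, namely Gm14681 on X by 2.43 ± 0.30, Gm6477 on chromosome 10 by 2.34 ± 0.28 and Gm9118 on chromosome 10 by 1.60 ± 0.20 (adjusted p = 0.00023, 0.00017 and 0.00078, limma treat), next to 2.41 for Npm1. Gm14681 had 1.35, 1.54 and 1.87 FPKM in normal livers and 9.65, 17.0 and 13.0 in vehicle tumors. Gm7993, a copy of Odc1, the ornithine decarboxylase of polyamine synthesis and a classical MYC target, had 20.3, 25.0 and 21.6 FPKM in livers and 84.9, 95.4 and 79.6 in vehicle tumors, a rise of 1.91 ± 0.15 (adjusted p = 1.4e-05, limma treat) beside 2.09 for Odc1.

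Copies of Tmsb10, the actin-binding thymosin beta 10, were among the largest increases. Gm9844 (annotated as protein coding, 99.1% identity) had 0.765, 0.561 and 0.395 FPKM in the livers and 16.3, 24.2 and 17.9 in vehicle tumors, a change of 3.69 ± 0.38 (adjusted p = 2.1e-05, limma treat). Gm3788 had 3.41, 2 and 1.41 FPKM in livers and 27.8, 39.1 and 28.1 in tumors, 3.35 ± 0.62 (adjusted p = 0.0021, limma treat). Tmsb10 itself changed by 4.6. A further copy, Gm8034 at 94.8% identity, had 4.22, 5.5 and 8.71 FPKM in livers and 5.66, 2.16 and 3.90 in tumors, with overlapping groups and a change of -0.56. Gm4366 (Eef1g), Gm9825 (Rnps1), Gm8186 (Snrpg), Gm4204 (Nap1l1), Gm21769 (closest to Nsfl1c), Gm4617 (Ptma) and Gm11585 (Ppih) also rose by treat, by 1.74, 1.83, 1.64, 1.53, 1.35, 1.21 and 1.16. Gm21769 was the one of these whose closest gene did not follow (89.5% identity, -0.08 for Nsfl1c), the other copied genes changing by 1.11 to 2.07.

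Gm11843 departed from the gene it copies. It had 1.09, 1.49 and 1.35 FPKM in the normal livers and 30.4, 13.3 and 30 in the vehicle tumors. Every vehicle tumor lay far above every liver, and the change was 3.38 ± 0.38 (adjusted p = 4.9e-05, limma treat). Ube2v2 had group means of 4.28 and 4.62 FPKM and changed by 0.09. Gm8941, the Gapdh copy, departed in the other direction, from 24.7, 19.7 and 45.8 FPKM in livers to 0.156, 0.211 and 0.191 in vehicle tumors (-4.62, with no test because the livers chose it), while Gapdh changed by 0.68. Gm18635, closest to Arhgap11a at 86.7% identity, showed the widest gap, with 13.4, 11.2 and 10.7 FPKM in livers and 1.10, 1.43 and 1.34 in vehicle tumors (-2.48, no test) where Arhgap11a changed by 2.97.

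Both copies that fell had source genes that were far higher in the normal livers. Gm8893 (chr12:103817856-103822243), an unprocessed copy of Serpina1a, an alpha-1 antitrypsin gene, at 98.8% identity, had 623, 565 and 612 FPKM in the livers and 24.6, 22.1 and 18.6 in vehicle tumors. It fell by 4.73 ± 0.36 (adjusted p = 1.9e-06, limma treat), as Serpina1a (-5.05) and Serpina1b (-4.88) were lower. Gm8893 lies within the span of Serpina1b on the same strand, and overlapping genes were not considered as its source. In MLN0128 tumors Gm8893 was at 26.6, 81.6 and 27.3 FPKM and in everolimus tumors at 35.2, 17.8 and 23.3, far below the livers in every library. Gm13443, a copy of the glyoxalase gene Glo1, fell by 2.48 ± 0.16 from 40.6, 34.0 and 42.5 FPKM to 6.31, 5.81 and 6.26 (adjusted p = 1.3e-06, limma treat), and Glo1 changed by -2.54. Gm10319, closest to the protease inhibitor gene Mug2, had 161, 132 and 151 FPKM in livers and 0.453, 0 and 0.387 in vehicle tumors, described without a test.

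The copies can also be set against their source genes by sequence identity. For 108 copies with a tested source gene, the change between normal liver and vehicle tumor lay within 1 log2 unit of that of the source in 87, namely in 22 of 23 at 100% identity, 40 of 44 at 99 to under 100% and 25 of 41 below 99%. Pearson's r across these copies was 0.90, 0.85 and 0.68, a description across genes of the same libraries that may also share reads. Copies were usually the smaller entry, at a median of 8.17% of the level of the source gene per length over 111 copies, but 14 were above it.

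**Figure D2:**
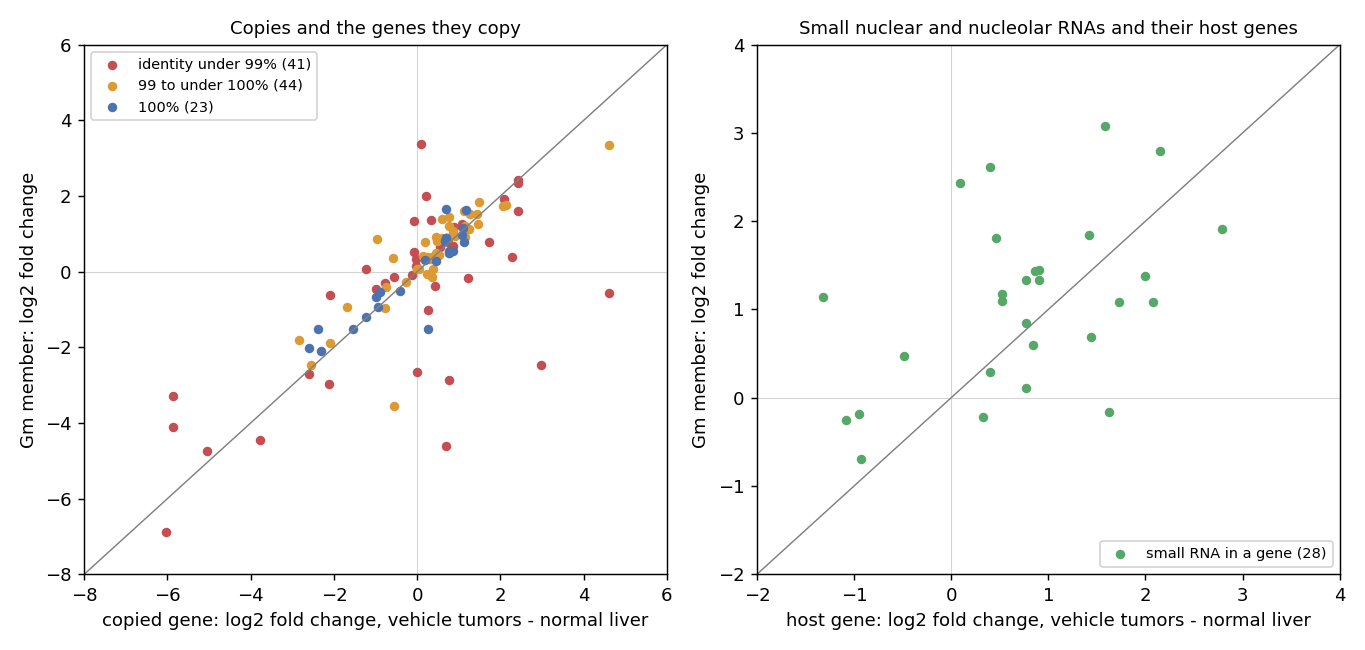
Each point on the left is 1 of 108 copies, with the log2 fold change of the copied gene (horizontal) against that of the copy (vertical) in vehicle tumors against normal livers, colored by identity, and each point on the right is 1 of 28 small RNAs against its host gene on the same strand. The line marks equal change, and the copies farthest from it, such as Gm8941 and Gm11843, are among those below 99% identity, while 18 of the 28 small RNAs lie above the line.

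The 21 protein-coding members held both genes that were high in normal livers and single-exon copies. Of 11 that were testable, 3 rose and 3 fell by treat, beside 23.2% and 17.0% of all genes at the same level rule. Gm4788 (chr1:139697623-139781243) had 262, 222 and 273 FPKM in livers and 10.3, 7.68 and 10.2 in vehicle tumors, and fell by 4.61 ± 0.30 (adjusted p = 4.6e-07, limma treat). Gm5617 (chr9:48495442-48495972) had 47.2, 50.2 and 49.5 FPKM in livers and 4.04, 2.77 and 5.5 in vehicle tumors, a fall of 3.33 ± 0.20 (adjusted p = 3.8e-07, limma treat). Gm4952 (chr19:12599974-12628251) fell by 2.81 ± 0.44 (adjusted p = 0.00084, limma treat) from 83.6, 118 and 73.3 to 9.61, 17.7 and 9.88 FPKM.

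Besides Gm9844, the protein-coding members that rose were Gm47283 on Y and Gm17622. Gm17622 has 45 exon bases and was listed at 0 in all 3 normal livers and at 4.15, 5.27 and 1.91 FPKM in vehicle tumors (adjusted p = 0.017, limma treat), and no fold is given against livers at 0. At this length the tumor values rest on a handful of reads in each library. Gm4951, Gm4756, Gm14403, Gm33543, Gm14325, Gm17018, Gm10762 and Gm17662 were lower in every vehicle tumor than in every liver, but the livers brought them over the threshold and they carry no test. Gm4756, for example, had 44.6, 19.4 and 42.6 FPKM in livers and 0.0688, 0.0979 and 0.165 in vehicle tumors. Gm14403 and Gm14325, whose closest named gene is the zinc finger gene Zfp966, changed by -3.94 and -1.34. The single-exon entries Gm2000 (Rpl35), Gm11361 (Rps18), Gm10073 (Rplp1) and Gm10282 (Hmgn2) match a named gene at 98.8 to 99.6% and had changes of 1.09, 0.71, 1.5 and 0.69. Gm11808 changed by 0.16. Gm16286, which shares exons with Txnl4a on its strand, and Gm49336 changed by 0.51 and 0.93.

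Small nuclear and nucleolar RNAs had mostly positive changes in vehicle tumors. Of 29 testable, 23 had a positive change, 7 rose by treat and none fell, and the median was 1.10. The share that rose by treat was near that of all genes at the same level rule (23.2%), of which 57% had a positive change. Gm26397 had 0.692, 0.677 and 0.715 FPKM in the normal livers and 15.3, 12.7 and 12.2 in vehicle tumors. Each liver value corresponds to 1 read, so the small spread among livers says little. It rose by 3.08 ± 0.13 (adjusted p = 3.4e-08, limma treat), beside 1.58 for its host Tomm20, an import receptor of the mitochondrial outer membrane. The liver values are below the 3-read floor for its length.

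Gm24494, in an intron of Rabggtb, a geranylgeranyl transferase subunit, rose by 2.43 ± 0.21 (adjusted p = 1.2e-05, limma treat) from 4.58, 3.36 and 4.73 to 33.4, 26.4 and 22.3 FPKM although Rabggtb changed by 0.09. Gm22858 had 0, 0 and 3.78 FPKM in livers and 12.3, 15.6 and 6.21 in vehicle tumors, a rise of 2.79 ± 0.52 (adjusted p = 0.0028, limma treat), and its host Wdr43, a ribosome biogenesis factor, changed by 2.15. Gm22154 (in Pabpc4), Gm25777 (Ranbp1), Gm23136 (Rpl4) and Gm23639 (Epb41l4aos) rose by 1.91, 1.84, 1.45 and 1.44. Host and small RNA therefore did not always move together, and 18 of 28 small RNAs, or 17 of the 26 that were testable, changed more positively than the host on their strand. The 10 Snhg and Gas5 genes, the longer noncoding hosts of snoRNAs, had a median of 1.36 with 6 higher by treat.

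**Figure D3:**
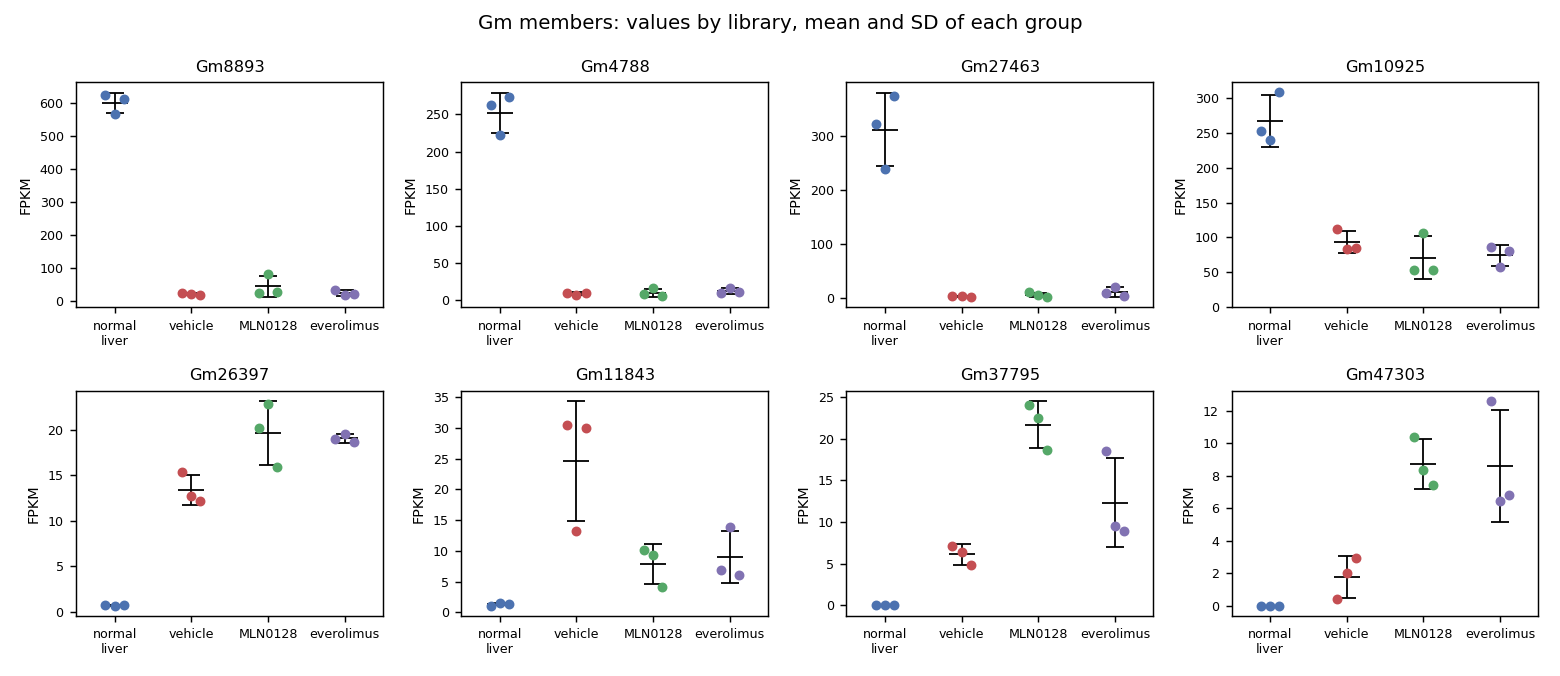
Points are the FPKM of each library (vertical axes, 1 panel for each of 8 members) in the 4 groups of 3, with bars for the mean ± SD. Gm8893, Gm4788, Gm27463 and Gm10925 are high in the normal livers, Gm26397 and Gm11843 in tumors, and Gm37795 and Gm47303 are highest in drug-treated tumors.

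Entries annotated as miRNA are short windows and need not be the mature miRNA, which these libraries are not made to capture. Gm23935 had 58900, 56000 and 44100 FPKM in the normal livers, 27500, 45500 and 20900 in vehicle, 22600, 26400 and 16700 in MLN0128 and 57500, 14500 and 66600 in everolimus tumors. It was the most abundant member in every library, and its groups overlapped (-0.83 ± 0.65 for vehicle against liver). Gm24270, of the same sequence, had 415, 347 and 286 FPKM in livers, 301, 541 and 261 in vehicle, 192, 231 and 220 in MLN0128 and 699, 176 and 449 in everolimus tumors. Its level was far below that of Gm23935 in every library. Gm24187, 1 base apart, had 163, 76.4 and 42.0 FPKM in livers, 241, 551 and 225 in vehicle tumors, 98.2, 241 and 192 in MLN0128 and 431, 59.7 and 228 in everolimus tumors, and its change of 1.93 ± 0.69 passed the moderated test only (adjusted p = 0.025, limma). The lincRNA Gm26917 (chr17:39843013-39846341) had 154, 482 and 142 FPKM in vehicle tumors, so that among the vehicle tumors replicate 2 was highest in all 4 of these members. It rose by 3.06 ± 0.56 against livers at 37.5, 23.0 and 18.9 FPKM (adjusted p = 0.0021, limma treat).

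Gm27463 (chr15:82641945-82642001, minus strand) had 322, 239 and 375 FPKM in normal livers, 2.46, 3.33 and 2.26 in vehicle, 9.88, 4.94 and 2.20 in MLN0128 and 9.29, 20.3 and 2.82 in everolimus tumors. No tumor came within 10-fold of a liver, and the fall of 6.40 ± 0.54 (adjusted p = 3.1e-06, limma treat) was the largest of any tested member. Its closest sequence is the cytochrome P450 gene Cyp2d40 (98.2% of 57 bases), which fell from a mean of 56.9 to 0.202 FPKM. Gm25361, of 76 bases in Ankrd52, was listed at 0 in all livers and at 3.68, 2.5 and 0.565 FPKM in vehicle tumors (adjusted p = 0.029, limma treat). Its tumor values also rest on a handful of reads in each library.

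Many lncRNAs were high in normal liver only. Of 90, 41 were at 5 FPKM or more in all 3 livers and in none of the 9 tumors, which is what let them pass the threshold, and the median change of all 90 was -1.88. In 49 every liver lay above every tumor, and in 14 every tumor above every liver. A liver mean at least 10-fold above the mean of the 9 tumors was seen in 30. Other genes were not counted in these ways, and the livers chose many of these members, so the counts describe them only. Gm30262 (chr10:111599177-111611338) had 57.0, 37.6 and 58.8 FPKM in livers and 0.354, 0.240 and 0.109 in vehicle tumors, and the antisense RNA Gm12909 (chr4:62088288-62090524) had 38.1, 35.7 and 56.9 against 0, 0 and 0.346. Summed hepatocyte markers moved in the same direction in these libraries, and their part in the lncRNA differences was not tested. The unannotated Gm21320 had the same pattern, with 44.2, 39.5 and 34.3 FPKM in livers and at most 0.34 in any tumor.

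**Figure D4:**
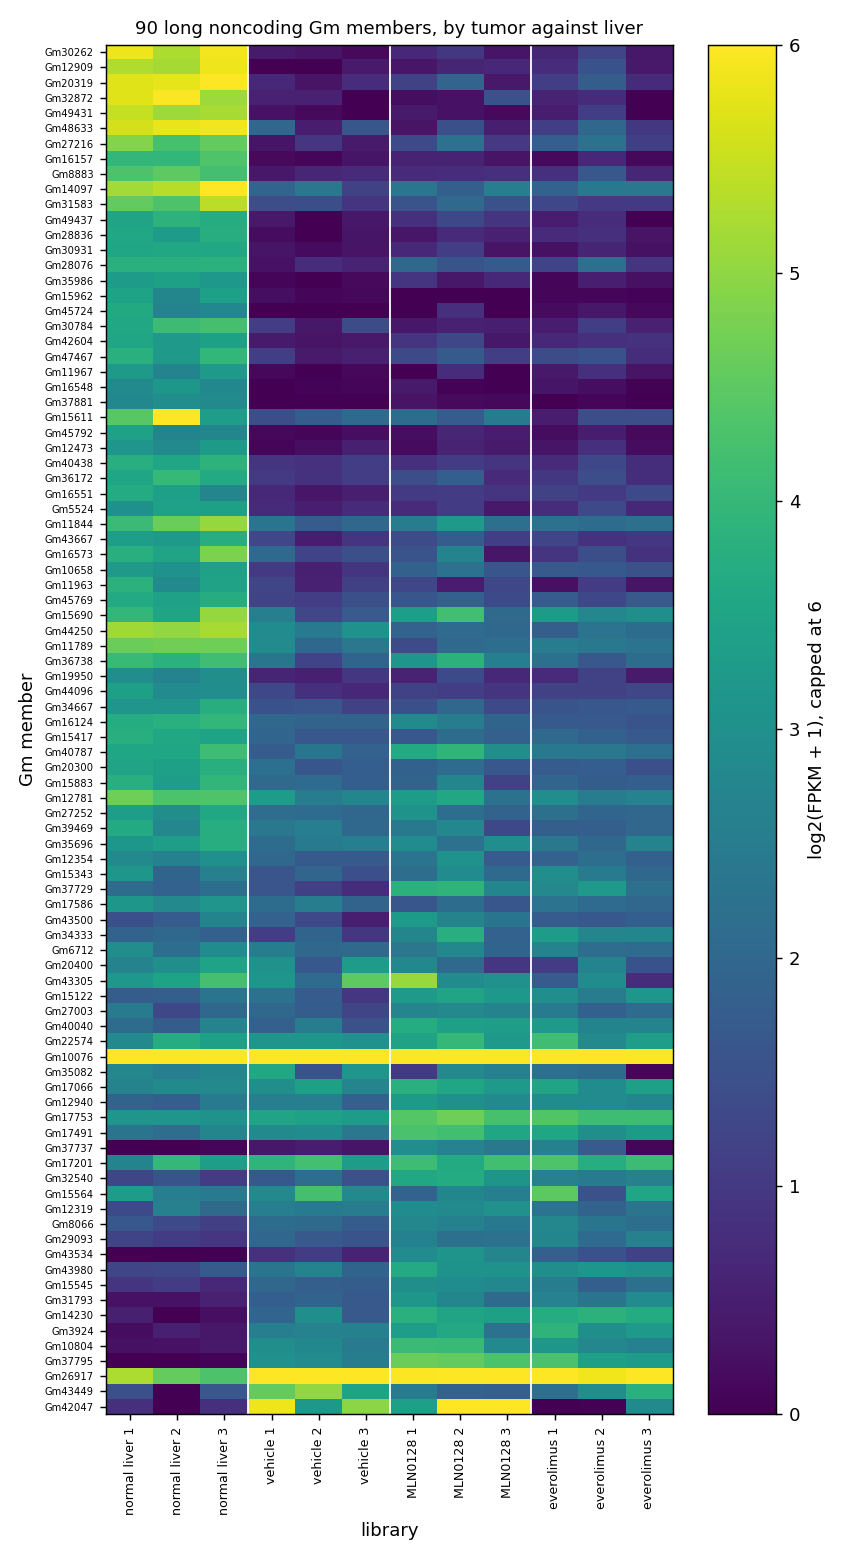
Rows are the 90 lncRNA members ordered by their change between vehicle tumor and normal liver, columns are the 12 libraries, and color is log2(FPKM + 1) capped at 6. The block at one end holds the members that were high in the 3 livers, and the block at the other end those that were high in the 9 tumors.

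Among the 33 testable lncRNAs 7 rose and 3 fell by treat, where 23.2% and 17.0% of all genes at the same level rule did. Gm10804 (chr2:93452819-93469871), in Cd82, had 0.199, 0.222 and 0.323 FPKM in livers and 6.79, 5.96 and 4.56 in vehicle tumors, a rise of 2.43 ± 0.28 (adjusted p = 0.00013, limma treat) where Cd82, a tetraspanin, changed by -1.56. Gm3924, Gm14230 and Gm31793 rose by 2.24, 1.95 and 1.41, Gm37795 by 2.80 and Gm42047 by 4.12 ± 0.95 (adjusted p = 0.0069, limma treat). Gm12781, Gm15690 and Gm40787 fell by 1.57, 2.31 and 1.75. Gm15690 overlaps Sds, the serine dehydratase of the liver, which changed by -3.21. Gm43449, in the gene of the fetal liver protein Afp but on the other strand, had 1.75, 0 and 2.07 FPKM in livers, 22.6, 31.5 and 10.2 in vehicle, 4.46, 2.78 and 2.59 in MLN0128 and 3.57, 6.85 and 13.0 in everolimus tumors. Afp group means were 2.27, 1607, 171 and 315 FPKM in the same order. Whether the counting used strand is not given in the sources used here, so reads of Gm43449 and Afp cannot be told apart, as with other antisense members such as Gm15690, and the member is described without a test. Its highest group was vehicle, as it was for Afp.

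MLN0128 tumors were compared with vehicle tumors to see the effect of blocking the mTOR kinase. Of 216 testable members, 3 rose and none fell by treat, where 0.479% and 1.65% of all tested genes, and 0.240% and 1.77% of those meeting the same level rule, were called. Without adjustment 15 and 3 had a treat p under 0.05. By the moderated test 25 were higher and 9 lower, beside 8.09% and 11.2% of all tested genes and 5.73% and 14.3% at the level rule. The median change was 0.19 among the members and -0.11 among all genes at the same level rule. MLN0128 replicates 1 and 2, which carry Xist, were part of each of these calls, and none of the 3 held by treat without either one. Without both, treat called none and the moderated test 5 higher and 5 lower, of which 5 and 3 were among the 25 and 9. With 1 MLN0128 library left, a lost call there says little of stability, and all 25 and all 9 kept their direction.

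Gm37795 (chr4:150068539-150070997, plus strand) was listed at 0, 0 and 0.039 FPKM in normal livers and had 7.19, 6.40 and 4.80 in vehicle, 24.0, 22.5 and 18.6 in MLN0128 and 18.5, 9.55 and 8.96 in everolimus tumors. MLN0128 libraries lay above all vehicle libraries, a change of 1.68 ± 0.23 (adjusted p = 0.020, limma treat) that was 1.47 without replicates 1 and 2. The first 17 bases of this entry overlap the end of the hairpin of miR-34a (chr4:150068454-150068555), a miRNA known as a target of p53. Gm37116, a diverged copy of Rpl39 (95.9%), had 4.13, 5.16 and 3.5 FPKM in vehicle, 16.3, 16.0 and 12.5 in MLN0128 and 9.72, 6.97 and 8.74 in everolimus tumors, with 1.60 ± 0.21 for MLN0128 (adjusted p = 0.019, limma treat) and 1.37 without those libraries. Rpl39 changed by 0.02, whereas Tsacc, within which Gm37116 lies on the same strand, changed by 0.79 (adjusted p = 0.0030, limma moderated test). Gm47303 (chr9:108103129-108103246), a miRNA entry over an exon of Bsn, was at 0.395, 2.01 and 2.91 FPKM in vehicle, 10.4, 8.35 and 7.44 in MLN0128 and 12.6, 6.44 and 6.80 in everolimus tumors and at 0 in every normal liver. Its change was 1.93 ± 0.33 (adjusted p = 0.044, limma treat), 1.73 without those libraries, and leaving out most single libraries also ended the call. Gm37795 and Gm47303, at or near 0 in the normal livers, were testable here only through the everolimus tumors, where they were also high.

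The noncoding members carried most of the positive changes under MLN0128. Of 75 testable lncRNAs 61 had a positive change, with a median of 0.34, 14 higher and 1 lower by the moderated test. Among all genes at the same level rule 40.6% had a positive change. The 75 include the 41 lncRNAs that reached 5 FPKM in all 3 livers and in none of the 9 tumors. Their changes lie between low values, some of them near 0, so the count of positive changes says little of their size. Counts of positive changes here include the Xist-carrying libraries. Gm17753 (chr15:79015329-79025782) was even within groups, with 10.3, 9.87 and 8.77 FPKM in vehicle, 20.4, 24.5 and 18.2 in MLN0128 and 19.8, 16.7 and 16.5 in everolimus tumors. It was higher by 1.04 ± 0.12 with MLN0128 (adjusted p = 0.00025, limma moderated test) and by 0.81 with everolimus (adjusted p = 0.0028, limma moderated test). Without the Xist-carrying libraries the MLN0128 change was 0.85 (adjusted p = 0.011, limma moderated test). Gm40787 (chr10:121488986-121490147) had 2.36, 4.04 and 2.71 FPKM in vehicle, 11.8, 14.2 and 6.86 in MLN0128 and 4.34, 4.17 and 3.55 in everolimus tumors, a change of 1.54 ± 0.25 with MLN0128 (adjusted p = 0.0011, limma moderated test) that was 0.98 without the Xist-carrying libraries (adjusted p = 0.048). Gm40040, Gm17491 and Gm10658 were higher by 1.53, 1.29 and 1.09 by the same test, and by 1.39, 0.84 and 0.80 without those libraries, where only Gm10658 passed. Of 21 testable small RNAs 20 had a positive change, with a median of 0.54, but only Gm22270 (in Rpl5, 1.00) and Gm25082 (over Clk4, 0.98) passed the moderated test, with 0.78 and 0.92 and no call without those libraries. The protein-coding Gm5617, at 7.82, 9.01 and 6.14 FPKM against 4.04, 2.77 and 5.5 in vehicle, was higher by 0.78 ± 0.20 (adjusted p = 0.011, limma moderated test), and by 0.52 without those libraries (adjusted p = 0.24). Of 28 small RNAs with a tested host gene on their strand, 25 changed more positively than the host, among them all 18 that were testable. Those that did not were left out of the 18 by the level rule, so that agreement is partly a product of selection.

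Members that MLN0128 lowered by the moderated test were mostly copies of other genes, 7 of 9. These were 7 of 57 testable copies of that class, a share near the 14.3% of all genes at the level rule. Gm9844, of the protein-coding entries, was at 6.39, 2.71 and 11.2 FPKM in MLN0128 tumors, each below every vehicle value, a change of -1.54 ± 0.38 (adjusted p = 0.0094, limma moderated test), and Tmsb10 changed by -1.87. Gm11843 was at 10.1, 9.38 and 4.03 FPKM, -1.53 ± 0.38 (adjusted p = 0.010, limma moderated test), with -0.32 for Ube2v2. Gm18635 at 0.199, 0 and 0.118, Gm7846 (Lsm5) at 2.31, 4.62 and 7.17 and Gm5424 (Ass1, argininosuccinate synthase) at 2.73, 5.75 and 2.36 FPKM had changes of -1.05, -1.02 and -0.99. Ass1 changed by -0.95. Without the Xist-carrying libraries Gm11843, Gm5424 and Gm18635 passed at -2.26, -1.38 and -1.03, while Gm9844 and Gm7846 stood at -0.73 and -0.40 and did not pass (adjusted p = 0.21 and 0.46, limma moderated test). Of the members chosen through these libraries, and so without a test, Gm37729 (in Serpinc1) went from 1.99, 1.21 and 0.733 FPKM in vehicle to 13.4, 14 and 5.78, Gm37737 from 0.313, 0.405 and 0.262 to 6.68, 5.30 and 4.26 and Gm43534 from 0.818, 1.08 and 0.497 to 6.45, 7.55 and 5.63. The copy of the ferritin light chain gene, Gm15590, went from 7.27, 6.62 and 10.4 to 1.72, 2.63 and 2.35 FPKM (-1.48), as Ftl1 did (-1.53). Gm7332, a copy of Ppp1r14b, went from 6.58, 8.36 and 6.71 to 1.94, 3.10 and 3.68 FPKM.

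Everolimus tumors were compared with the same vehicle tumors to see the effect of the mTORC1 inhibitor. Of 222 testable members, limma's treat called 0 higher and 0 lower, where 0.0347% and 0.570% of all tested genes were called, and 0.0135% and 0.269% at the level rule. Without adjustment 7 and 2 had a treat p under 0.05, and limma's voom on recovered reads also called 0. The moderated test called 13 higher and 5 lower, against 2.03% and 4.69% of all tested genes and 2.25% and 3.92% at the level rule, and 8 of the 13 were lncRNAs. Gm14230 (chr2:156833049-156839892) had 0.435, 0 and 0.180 FPKM in normal livers, 2.89, 6.94 and 2.17 in vehicle, 13.0, 10.4 and 9.57 in MLN0128 and 12.2, 13.4 and 11.9 in everolimus tumors. Both drug groups lay above vehicle without overlap, at 1.55 ± 0.28 for everolimus (adjusted p = 0.0062, limma moderated test) and 1.37 ± 0.28 for MLN0128 (adjusted p = 0.0036, limma moderated test), the latter 1.20 without the Xist-carrying libraries (adjusted p = 0.086). Gm47303 and Gm37729 had 1.86 and 1.58 for everolimus (adjusted p = 0.0060 and 0.012, limma moderated test), so Gm47303 passed in each drug group. Gm47303 and Gm14230 were testable for each drug only through the tumors of the other drug. Both comparisons also share the vehicle tumors, so passing in each is not independent agreement.

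Gm17662, 24 exon bases inside C8a on the other strand, was listed at 0 in the 3 vehicle tumors and at 2.21, 27.5 and 3.34 FPKM in everolimus tumors, with 61.8, 11.3 and 51.9 in livers, and no fold is given against vehicle. Of the 5 lower members, Gm6548, a copy of the elongation factor gene Eef1a1 (96.7%), had 10.2, 7.57 and 11.1 FPKM in vehicle and 5.13, 4.45 and 4.75 in everolimus tumors, -0.87 ± 0.14 (adjusted p = 0.0043, limma moderated test), with 0.26 for Eef1a1. It was also lower with MLN0128, at 5.32, 4.71 and 5.35 FPKM (-0.78, and -0.73 without the Xist-carrying libraries). Gm44250, Gm18635 and Gm3650 changed by -0.75, -0.67 and -1, and Gm42047 by -3.70. Gm3226, a copy of the tubulin gene Tuba1b, was at 5.60, 5.91 and 7.03 FPKM in everolimus tumors and below 0.6 in the other 9 libraries. Those 3 libraries are what chose it, so it is described only. Tuba1b changed by 0.54. Gm34333 went from 1.12, 2.84 and 0.962 FPKM in vehicle to 8.78, 5.63 and 5.70, and Gm3608 from 8.08, 7.93 and 8.02 to 5.08, 0.497 and 0.758.

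MLN0128 and everolimus were given at the same dose and time, so their tumors can be compared directly. Of 202 testable members none passed treat in limma (0.00695% of all tested genes were called higher and 0.0347% lower, and 0.00% and 0.0403% at the level rule), limma's voom called 0, and 3 higher and 2 lower had an unadjusted p under 0.05. The moderated test called 4 higher and 3 lower with MLN0128, against 2.30% and 3.00% of all tested genes and 0.955% and 4.75% at the level rule. Gm40787 and Gm36738 were higher with MLN0128 by 1.20 ± 0.25 and 1.21 ± 0.32, and Gm7993, the Odc1 copy, lower by 0.75 ± 0.15, at 49.2, 48.2 and 62.1 FPKM with MLN0128 and 95.8, 73.5 and 101 with everolimus. Without the Xist-carrying libraries none of the 7 passed the moderated test in limma, though each kept its direction, and another member was called lower. Gm25361 and Gm13493, described without a test, changed by 1.31 and -0.36.

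A few members were on in some tumors of a group and off in others. A range of at least 3 log2 units within a group was found in 7 members (2.62%) and in 32 of 7846 other genes at the same level (0.408%), a criterion chosen after the values were seen. Gm6166, a copy of the fatty acid binding protein gene Fabp5 (98.3%), had 1.26, 52.3 and 0.315 FPKM in vehicle, 26.9, 0.459 and 32.5 in MLN0128 and 92.8, 0.0808 and 60.6 in everolimus tumors, and at most 0.665 in normal livers. Gm15920, a copy of the complex I gene Ndufa12 (99.5%), had 52.4, 51.4 and 45.8 in livers, 1.04, 23.2 and 0.641 in vehicle, 0.263, 26.4 and 19.7 in MLN0128 and 30.6, 0.822 and 26.1 in everolimus tumors. In each tumor group the libraries split into high and low ones. The lincRNA Gm42047 (chr8:121833247-121841178) had 0.772, 0 and 0.747 in livers, 56.5, 8.12 and 30.1 in vehicle, 9.47, 86.1 and 83.0 in MLN0128 and 0, 0.0292 and 6.18 in everolimus tumors. Its everolimus libraries lay below all other tumors, but the change against vehicle passed only the moderated test (adjusted p = 0.033, limma). The other 4 were Gm17662 and the snoRNAs Gm23969, Gm22771 and Gm27326, in which the range of the snoRNAs was within the normal livers and included a library at 0. Replicates of such members cannot be averaged into 1 level, and no cause of the split was tested.

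**Figure D5:**
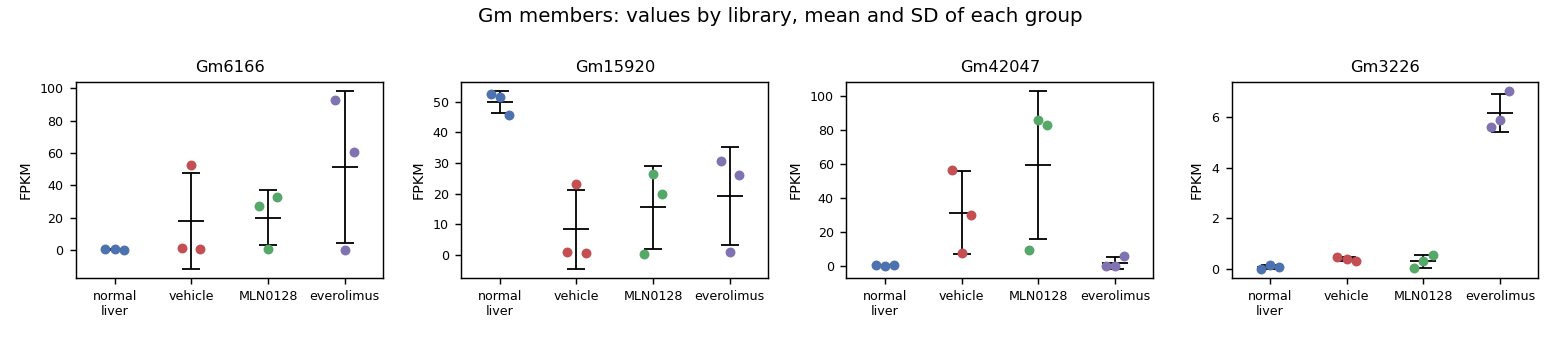
Points are the FPKM of each library in the 4 groups for Gm6166, Gm15920, Gm42047 and Gm3226, with bars for the mean ± SD. Gm6166 and Gm15920 each have both high and near-0 libraries within every tumor group, whereas Gm3226 is above 5 FPKM in the 3 everolimus libraries and below 0.6 elsewhere.

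The members on the sex chromosomes were mostly copies of autosomal genes. On X these were Gm6472 (Rps7), Gm14681 (Npm1), Gm14539 (Usmg5), Gm7331 (Kxd1), a further ribosomal protein copy, Gm14586, and the snRNA Gm25047. In the Xist-carrying MLN0128 replicates 1 and 2, Gm6472 was at 229 and 316 FPKM and Gm14681 at 11.5 and 16.7, with 165 and 15.1 in replicate 3. Gm14586, Gm14539, Gm7331 and Gm25047 were at 4.57 and 7.70, 3.84 and 12.1, 3.00 and 5.21, and 2.37 and 1.35 FPKM there, with 6.35, 4.08, 3.46 and 2.41 in replicate 3. Gm6472 thus had its highest values in the Xist-carrying libraries, although 228 in everolimus replicate 3 came within 1 FPKM of the lower of them, and none of the other 5 had its 2 highest values there. The one Y member, Gm47283 (chrY:90784738-90816464), at the end of Y where the pseudoautosomal region lies, was at 33.1 and 15.2 FPKM in the libraries without Ddx3y and at 24.8 in MLN0128 replicate 3. It had 4.37, 5.32 and 7.25 FPKM in normal livers, 25.6, 19.2 and 14.6 in vehicle and 56.8, 41.2 and 85.0 in everolimus tumors. It rose by 1.63 ± 0.32 in vehicle tumors (adjusted p = 0.012, limma treat) and was higher with everolimus than with vehicle by 1.55 ± 0.32 (adjusted p = 0.012, limma moderated test), with every everolimus library above every other library.

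At the edge of the threshold, where the third highest library decides, Gm24616 (5.06 FPKM) and Gm29093 (5.10) were just inside and Gm6135 (4.99) and Gm21049 (4.96) just outside.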

How the data were processed

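Total RNA of 12 mouse tissues was sequenced. Per the labels, libraries were made by polyA capture or rRNA removal, without saying which. The authors counted reads per Ensembl gene, took symbols through Entrez identifiers and deposited FPKM values for each library. Their processing notes name GRCm38 and FastQC 0.11.7, while the aligner, the strand setting and the gene lengths are not given in the sources used here. The authors called genes with edgeR's glmTreat on counts. Here only FPKM were at hand, and no count model was the main test.

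The members and the gene lists were chosen with earlier results of these data known. Values were tested as log2(FPKM + 1) with limma 3.58.1 (R 4.3.3), using an intensity trend, in 1 model of the 4 groups over 14397 genes at 0.5 FPKM or more in at least 3 libraries, with treat against a fold change of 1.5 and Benjamini-Hochberg adjusted p under 0.05 over all tested genes. The procedure was tested on simulated data. Replicates are separate samples by label only, and p-values measure the spread between them.

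Members were matched by symbol to GENCODE M21, and copied genes were the best named match of blastn 2.17.0 over annotated transcripts, leaving out genes that overlap the member. With exon lengths from that annotation, 98.2 to 98.8% of values under 20 reads came out as whole reads within 0.1, where chance gives 20.0%, which gave the depth. The deposited scaling divides by 0.585 to 0.596 of the recovered reads in normal livers and by 1.10 to 1.368 of them in tumors.

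Named genes were the 6 most abundant members, up to 5 called in each direction of each comparison by size, up to 3 in each direction of those described without a test, all protein-coding, X and Y members, those next to the threshold and the source genes of copies, a few of which are not reported here. Further called members were added after their values were seen. Alternatives varied the pseudocount, filter, scaling, test, variance trend, libraries in the model, replicate block, single libraries and the 2 Xist-carrying libraries. Same-numbered replicates did not deviate together, so numbers were not taken as pairs.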

Additional observations from a re-analysis of the deposited data

Results flagged for a closer look

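In 7 members MLN0128 and everolimus tumors differed by limma's moderated test of that difference (3 libraries against 3), although none passed treat. Gm42047 was higher with MLN0128 by 4.45 on the log2 scale (adjusted p = 0.019), at 9.47, 86.1 and 83.0 FPKM against 0, 0.0292 and 6.18. Gm36738 was higher by 1.21 (adjusted p = 0.040), at 7.86, 13.5 and 4.99 FPKM against 3.63, 2.10 and 3.36, and Gm40787 by 1.20 (adjusted p = 0.016). Gm16124, antisense to the cullin gene Cul5, was higher by 0.80 (adjusted p = 0.026), at 6.35, 4.73 and 2.84 FPKM against 2.26, 2.18 and 1.94. All MLN0128 libraries of these 4 members lay above all everolimus libraries.

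Gm47283 differed by -1.29 (adjusted p = 0.029), Gm7993, the Odc1 copy, by -0.75 (adjusted p = 0.016) and Gm11914, a copy of the nucleosome-binding gene Hmgn5, by -0.69 (adjusted p = 0.047), in each case lower with MLN0128. Gm11914 was at 6.60, 6.57 and 6.60 FPKM with MLN0128 and 13.2, 9.19 and 11.6 with everolimus. Odc1 group means were 72.9 FPKM with MLN0128 and 119 with everolimus. The groups of these 3 members did not overlap either, and p-values are adjusted over all tested genes. With MLN0128 replicates 1 and 2, which carry Xist, left out, none of the 7 passed (adjusted p = 0.057 to 0.43, limma moderated test). Gm42047, Gm36738, Gm40787 and Gm16124 were then at 5.43, 0.59, 0.65 and 0.30, and Gm47283, Gm7993 and Gm11914 at -1.20, -0.52 and -0.68. The remaining MLN0128 library is assumed to vary like the other groups, so these lost calls say little of stability.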

How the results depend on the processing

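The choice of the moderated test in place of treat moved every count: vehicle against normal liver from 36 higher and 15 lower to 73 and 23, MLN0128 against vehicle from 3 and 0 to 25 and 9, everolimus against vehicle from 0 and 0 to 13 and 5, and MLN0128 against everolimus from 0 and 0 to 4 and 3. For vehicle against liver a pseudocount of 5 left 16 higher, and plain library totals gave 94 higher and 8 lower. That scaling moved the median of all genes from 0.06 to 0.63 and of the mitochondrial copies from -1.51 to -0.58, while the medians of the other classes stayed positive. For MLN0128 a pseudocount of 0.1 gave 8 higher and 1 lower, a pseudocount of 5 gave 0 higher, plain library totals 8 and 1, and voom 5 and 1. For everolimus a pseudocount of 0.1 gave 1 higher. Leaving out 1 library at a time gave 28 to 39 higher and 13 to 16 lower for vehicle against liver, 0 to 7 and 0 to 1 for MLN0128, and 0 to 1 higher for everolimus (1 without vehicle replicate 2). For MLN0128 the count of higher members was 0 once its replicate 1, its replicate 2 or both were left out, 7 once its replicate 3 was, and 1, 5 and 1 once vehicle replicate 1, 2 or 3 was. With the replicate block the counts were 34 and 15, 2 and 0, 0 and 0, and 0 and 0, and correlations of same-numbered libraries ran from -0.289 to 0.148, so the numbers did not pair the samples. The MLN0128 call that ended under the block was Gm47303. Among named members, 35 log2 fold changes under 805 alternatives in all kept direction and call in 771, lost the call in 27, gained it in 7 and never changed direction. The number of members was 267, and at thresholds of 2 and 10 FPKM would be 627 and 137, or 147 if 6 libraries were required. Depth limits the shortest members most.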
